A study of Mus musculus with 8 samples.

Results

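The clustered histone genes are the genes, gathered mainly on chromosome 13, that supply core and linker histones to newly copied DNA. They were taken as every row of the count tables whose symbol begins with Hist1h, Hist2h, Hist3h or Hist4h, and there were 68 of them among 24421 genes. They comprised 6 genes of linker histone H1, 18 of H2a, 19 of H2b, 12 of H3 and 13 of H4. By cluster, 54 belonged to Hist1, 10 to Hist2, 3 to Hist3 and 1 to Hist4.

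Nanopore sequencing was used to read polyadenylated RNA of the R1 mouse embryonic stem cell line in 2 states, with 2 library kits. Each combination had 2 biological replicates, which gave 8 libraries. By the paper, RNA from duplicate samples of each state was used for both kits. A change seen on both kits is therefore not shown by separate cultures. Undiff cells were grown in stem cell medium with LIF, the cytokine that maintains pluripotency. Day4 cells were embryoid bodies, aggregates formed and grown without LIF for 4 days. They were then given retinoic acid for a further 4 days (2 µM in the design text, 2 mM in the sample labels). The state comparison therefore combines aggregation, loss of LIF, time in culture and retinoic acid. Direct RNA libraries passed 500 ng of poly(A)-selected RNA itself through the pore, whereas cDNA libraries were reverse transcribed and amplified by PCR from 50 ng. The label for all 8 libraries is embryonic stem cells, but embryoid bodies hold mixed cell types. All 8 pluripotency markers fell in Day4 on both kits, beside 7.67% (Direct RNA) and 9.24% (cDNA) of all genes tested. By DESeq2, endoderm markers rose in 5 of 6 tested on Direct RNA and 4 of 5 on cDNA, and fibroblast markers in 6 of 6 and 5 of 6. Of all genes tested, 9.54% were called higher on Direct RNA and 8.69% on cDNA. Thy1, on the fibroblast list, had 3 and 6 reads in Undiff and 0 and 3 in Day4 on Direct RNA and 7 and 8 against 0 and 2 on cDNA, and edgeR called it lower on cDNA. Lama1, on the endoderm list, gave 11.5 and 17.6 CPM (counts per 1000000 reads on genes) in Undiff and 7.06 and 9.49 CPM in Day4 on Direct RNA, and was called on neither kit.

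Most mRNAs of this family are the exception to polyadenylation in animals. Their 3′ ends are cut a few bases after a conserved stem-loop, which the stem-loop binding protein holds, while the U7 small nuclear RNP pairs with an element downstream of the cut, and they carry no poly(A) tail. They accumulate while DNA is copied and are degraded when replication ends. Some of the same genes also have a poly(A) signal further downstream, and transcripts that end there are polyadenylated and can outlast S phase. A library made from poly(A)-selected RNA is therefore meant to read the polyadenylated minority of this family, not its total RNA.

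The stem-loops and annotated poly(A) signals of the members that lead the results are shown first, since they mark the kinds of 3′ end described above. The annotation does not settle which ends were captured in these libraries. In GENCODE vM21 (GRCm38), all 68 genes were found, and 63 of them had a single exon in their longest transcript. A stem of 6 base pairs with a loop of 4 bases, of the histone type, was found after the stop codon in 43 members, and it began 21 to 58 bases after that codon (median 31). The next sequences give it in capitals with 6 bases on each side, 5′ to 3′ on the gene's strand.

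Hist3h2a: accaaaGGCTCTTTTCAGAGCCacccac
Hist3h2ba: cccaaaGGCTCTTTTCAGAGCCaccttc
Hist1h1c: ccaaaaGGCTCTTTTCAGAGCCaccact
Hist1h2bj: tccaaaGGCTCTTTTCAGAGCCacgcac
Hist1h3c: aaaaaaGGCTCTTTTAAGAGCCacctaa
Hist1h4h: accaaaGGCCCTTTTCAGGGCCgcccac

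These stem-loops lay at chr11:58955172-58955187 (Hist3h2a, plus strand), chr11:58949349-58949364 (Hist3h2ba, plus), chr13:23739512-23739527 (Hist1h1c, plus), chr13:22043638-22043653 (Hist1h2bj, plus), chr13:23745047-23745062 (Hist1h3c, minus) and chr13:23531458-23531473 (Hist1h4h, plus). The form shared by the first 4 genes shown occurred in 25 members of the H1, H2a, H2b and H3 classes. The form of Hist1h3c occurred in 6 and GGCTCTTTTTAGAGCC in 1. H4 genes had 3 forms of their own, that of Hist1h4h in 7, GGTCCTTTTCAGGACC in 2 and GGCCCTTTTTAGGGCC in a further 2. In 41 of the 43, the RefSeq gene model ended 4 to 8 bases after the loop, at the place where processing of the non-polyadenylated form is known to cut.

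The GENCODE models of 16 members continued past the stem-loop and held the letters of a poly(A) signal after it. These were AATAAA or its common variant ATTAAA, counted at any distance from the transcript end. Hist3h2a, Hist3h2ba and Hist1h1c, which had more reads in Day4 on Direct RNA, were among them. The signal nearest to the transcript end is given in capitals.

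Hist3h2a: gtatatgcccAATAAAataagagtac
Hist3h2ba: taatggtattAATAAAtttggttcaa
Hist1h1c: gtatgcttctAATAAAaagcgtttag

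The signals stood 28, 21 and 20 bases before the annotated transcript ends, and these transcripts continued for 1643, 169 and 840 bases past the stem-loop. A further 27 members had a stem-loop and no later signal in the model, 6 had a signal and no stem-loop, and 19 had neither. Hist1h2bc, an H2b gene at chr13:23684199-23692908 on the plus strand, belonged to the 6: its annotated transcript joins 2 exons, and no stem-loop was found in it. Models that stop at or near the stop codon, such as that of Hist1h1b, hold neither feature, and no match says only that these letters are not in the annotated transcript.

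Clustered histone genes took up a small share of every library. Reads on genes numbered 283461 to 907489 in the Direct RNA libraries and 948657 to 2088592 in the cDNA libraries. Of these, 74 to 228 reads (Direct RNA) and 453 to 735 reads (cDNA) fell on members, or 0.0214% to 0.0702% per library. At least 1 read in any library was found for 58 members, and 10 had none. With 3 reads as the limit that a count of 0 allows, the floor ran from 1.44 CPM (read counts scaled to a library of 1000000 reads on genes) in the deepest libraries to 10.6 CPM in the smallest, so for many members absence could not be told from low level. Counting limits and intervals cover counting error only.

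The 10 members at 0 were Hist1h2ao, Hist1h2ap, Hist1h2ba, Hist1h2bq, Hist1h2br, Hist1h4m, Hist2h2aa1, Hist2h2aa2, Hist2h3c1 and Hist2h3c2. For 8 members, at least 90% of the 50-base words of the transcript also occur in another gene, and 5 of these 8 were among the 10 at 0. Reads that map equally well to several places are dropped by the counter used, so levels of near-identical copies are uncertain. Word sharing was partial among the leading members. It came to 22.1% for Hist3h2ba, 30.1% for Hist1h2bc, 59.4% for Hist1h2bj and 74.2% for Hist1h2bk.

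Members with more than 1 read numbered 23 and 34 in the Direct RNA Undiff libraries and 7 and 24 in Day4. They numbered 51 and 35 in the cDNA Undiff libraries and 15 and 26 in Day4. At the read number of the smallest library, the expected numbers would be 19.1 and 14.0 (Direct RNA Undiff), 7 and 13.2 (Direct RNA Day4), 31.1 and 10.9 (cDNA Undiff) and 4.94 and 5.83 (cDNA Day4). These are expectations from the counts, with no test.

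Summed over the 68 genes, Direct RNA gave 241 and 214 CPM in Undiff and 261 and 309 CPM in Day4. The cDNA libraries gave 702 and 217 CPM in Undiff and 457 and 354 CPM in Day4. The total was higher in Day4 on Direct RNA, at 285 ± 34.0 CPM against 227 ± 19.3 (SD, n = 2), and did not differ beyond the spread on cDNA, at 406 ± 73.3 against 459 ± 343. Exact permutation of 2 against 2 libraries cannot give a two-sided p below 0.333, so these sums are given as descriptions. Without the Hist3 pair, Hist3h2a and Hist3h2ba, which were left out because they rose, the Direct RNA sum was 230 and 206 CPM in Undiff and 162 and 206 CPM in Day4, so the higher total in Day4 was that of the pair. On cDNA the sum without the pair was 413 ± 332 CPM in Undiff and 81.7 ± 10.4 in Day4.

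**Figure D1:**
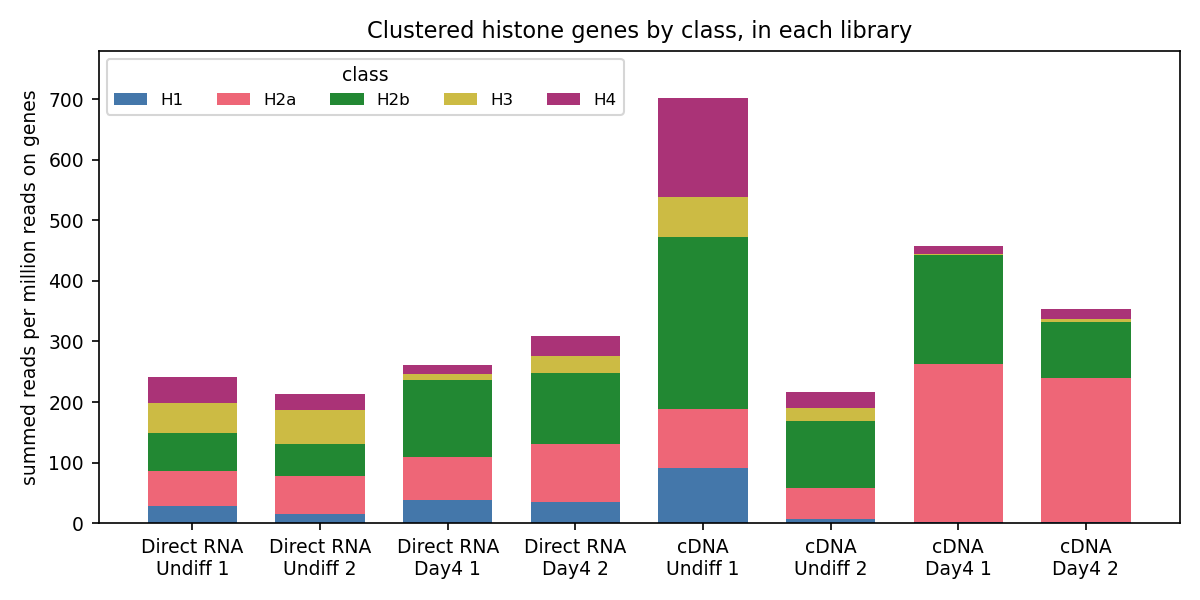
Summed CPM of the clustered histone genes in each of the 8 libraries, stacked by class. The cDNA Undiff replicate 1 library stands highest at 702 CPM against 217 CPM in its replicate, and in the cDNA Day4 libraries H2a takes 261 and 238 CPM while H1 takes 2.28 and 1.44 CPM.

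The cDNA Undiff replicate 1 library stood apart, and the DESeq2 calls of the cDNA state test and of the kit test over both states are also given without it. Of the 56 members with a read in that group, 51 were higher in replicate 1 and 5 in replicate 2, with a ratio of summed CPM of 3.24. The excess touched every class. H1 came to 90.7 against 7.18 CPM, H4 to 163 against 26.3 CPM, H3 to 65.4 against 22.0 CPM, H2b to 285 against 110 CPM and H2a to 98.0 against 51.2 CPM. Hist3h2a (32.7 and 34.5 CPM) did not take part and Hist1h2bc was higher in replicate 2 (26.4 and 54.1 CPM). In the same library Rpph1, the RNA of RNase P, which is made without a poly(A) tail, stood at 468 CPM against 24.9 CPM in replicate 2. Rpph1 was looked at after the histone values had been seen, and the part of such RNA in the result was not tested. The summed level of 25 DNA replication and S-phase genes was 4865 and 5429 CPM in the same libraries, which is not higher in replicate 1.

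**Figure D2:**
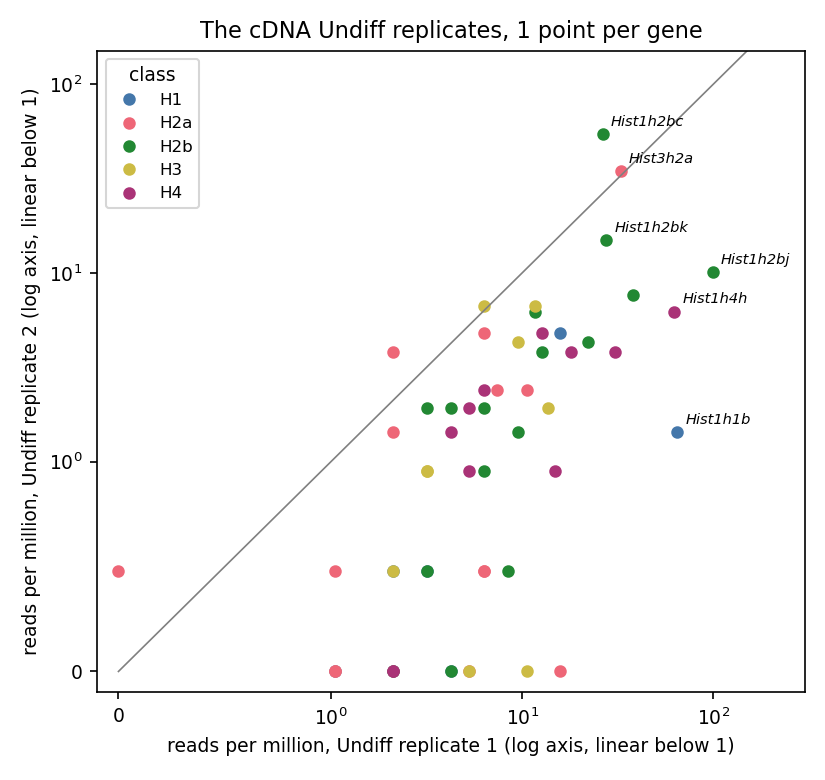
Each point is 1 clustered histone gene with a read in the cDNA Undiff libraries, with its CPM in replicate 1 on the x axis and in replicate 2 on the y axis (log axes, linear below 1; the line marks equality). Of 56 genes 51 lie on the side of replicate 1, whereas Hist3h2a lies on the line and Hist1h2bc above it.

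The first comparison asked which members changed between Undiff and Day4. The Hist3 pair, Hist3h2a and Hist3h2ba, rose in Day4 on both kits, whereas 9 members of the Hist1 and Hist4 clusters were called lower on cDNA when all 4 libraries were used. Without cDNA Undiff replicate 1 none of the 9 was called, and without either cDNA Day4 library 1 was, Hist1h2bj. The pair lies on chromosome 11, with starts 5765 bases apart, and encodes an H2A and an H2B protein. A gene was called where its mean count reached 5, its DESeq2 adjusted p did not exceed 0.05 and the change spanned 1 log2 unit or more. Without cDNA Undiff replicate 1 some of the 9 fell below that mean count and could not be called. On Direct RNA only 6 members reached that mean count, and 2 were called higher, beside 9.54% of the 9646 genes tested. None was called lower by DESeq2, beside 7.67% of all genes tested, and none was lower at an unadjusted p under 0.05. By edgeR, 4 of 7 members tested were called higher, beside 18.6% of 9898 genes, and none lower, beside 15%, with 2 lower at an unadjusted p under 0.05. On cDNA 24 members reached the mean count, of which 2 were called higher (8.69% of 10271 genes tested) and 9 lower (9.24%). By edgeR, 2 of 26 members tested on cDNA were called higher (17.1% of 10481 genes) and 19 lower (15.4%).

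Hist3h2a, an H2a gene with a single exon at chr11:58954685-58956830 (plus strand), gave 11.5 and 4.41 CPM in the Undiff and 45.9 and 52.9 CPM in the Day4 Direct RNA libraries. On cDNA it gave 32.7 and 34.5 CPM in Undiff and 255 and 227 CPM in Day4. All 4 Day4 libraries lay above the Undiff libraries of their kit, with no overlap. The log2 fold change was 2.43 (SE 0.85, adjusted p = 0.0407, DESeq2) on Direct RNA and 2.48 (SE 0.44, adjusted p = 9.26e-07) on cDNA. With 971 reads in all, Hist3h2a held the most reads of any member. Its GENCODE transcript of 2146 bases overlaps exons of Trim17 on the same strand, which gave 0 reads in the Direct RNA libraries and the cDNA Undiff libraries and 1 and 7 reads in the cDNA Day4 libraries.

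Hist3h2ba, a single-exon H2b gene at chr11:58948920-58949533 (plus strand), had 0 and 3 reads in the Undiff Direct RNA libraries (0 reads allow up to 8.61 CPM in the first) against 15 and 37 reads in Day4. These counts correspond to 52.9 and 50.2 CPM in Day4. On cDNA it rose from 22.1 and 4.31 CPM to 128 and 37.5 CPM. The groups did not overlap on either kit, but the cDNA replicates of each state differed among themselves more than those of Hist3h2a did. The log2 fold change was 3.81 (SE 0.99, adjusted p = 0.00211, DESeq2) on Direct RNA and 2.26 (SE 0.74, adjusted p = 0.0230) on cDNA. The Hist3 cluster as a whole went from 10.1 ± 1.88 to 101 ± 3.01 CPM on Direct RNA and from 47.9 ± 12.8 to 324 ± 83.7 CPM on cDNA (mean ± SD, n = 2). The pseudogene of the cluster, Hist3h2bb-ps, gave 3 reads in all 8 libraries.

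The calls of the pair depended on the number of libraries. On Direct RNA neither was called when any 1 of the 4 libraries was left out, although 1 or 2 members were then still higher at an unadjusted p under 0.05. The log2 fold changes in these fits were 1.69 to 2.75 for Hist3h2a and 3.11 to 4.12 for Hist3h2ba. On cDNA, over all alternatives run, they ran from 2.27 to 2.64 for Hist3h2a and from 0.98 to 4.01 for Hist3h2ba. On cDNA Hist3h2a was called without each library in turn, and Hist3h2ba was not called without Undiff replicate 2 or without Day4 replicate 1.

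**Figure D3:**
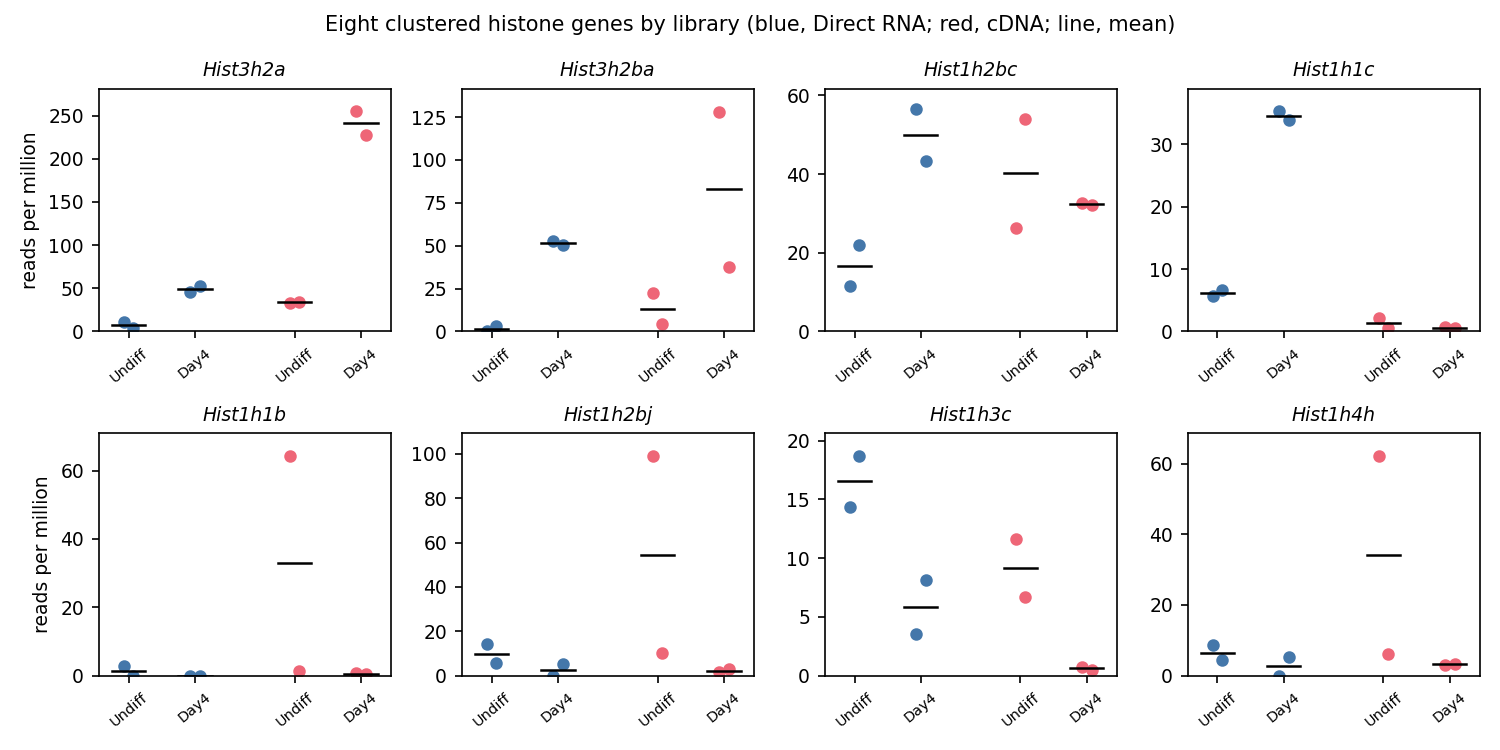
CPM of 8 clustered histone genes in each library, by state, with Direct RNA in blue and cDNA in red; points are libraries and lines are means of 2. Hist3h2a and Hist3h2ba lie higher in Day4 on both kits, Hist1h1c is seen mainly on Direct RNA (34.6 CPM in Day4), and the cDNA Undiff replicate 1 point of Hist1h1b, Hist1h2bj and Hist1h4h stands far above all others.

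Hist1h2bc, the H2b gene with the spliced transcript, did not pass the test on either kit. It gave 11.5 and 22.0 CPM in Undiff and 56.4 and 43.4 CPM in Day4 on Direct RNA (log2 change 1.28, SE 0.75, adjusted p = 0.355, DESeq2). On cDNA it gave 26.4 and 54.1 CPM in Undiff and 32.6 and 32.3 CPM in Day4 (log2 fold change -0.61, SE 0.57, adjusted p = 0.678). Its Direct RNA groups did not overlap, while on cDNA both Day4 values fell between the Undiff values. By edgeR it was called higher on Direct RNA.

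Without division by length, the mean Day4 levels on Direct RNA were close, at 49.4 CPM for Hist3h2a, 51.5 for Hist3h2ba and 49.9 for Hist1h2bc. On cDNA they were 241, 82.9 and 32.4 CPM. A long read can span a whole transcript and is counted once. Values per kilobase of transcript therefore depend on the model length, and are given only beside these. In the Day4 Direct RNA libraries the mean level was 83.9 CPM per kb for Hist3h2ba, 43.2 for Hist1h2bc and 23.0 for Hist3h2a. With the shorter RefSeq models, which end after the stem-loop, Hist3h2a came to 97.2 and Hist3h2ba to 112 CPM per kb. In the cDNA Day4 libraries the longer models gave 112 for Hist3h2a, below the value for Hist3h2ba, and the RefSeq models gave 475 for Hist3h2a and 179 for Hist3h2ba, so their order there turned with the model. The RefSeq span of Hist1h2bc includes its intron and was not used for this.

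Among the linker histone genes, Hist1h1c had the most reads on Direct RNA. On cDNA it was Hist1h1b with 66 reads, but 61 of them lay in Undiff replicate 1, and in the other 3 cDNA libraries Hist1h1a led. H1 proteins bind the DNA that enters and leaves the nucleosome. Hist1h1c gave 5.74 and 6.61 CPM in Undiff and 35.3 and 33.9 CPM in Day4 on Direct RNA (2, 6, 10 and 25 reads). The Day4 libraries lay above the Undiff libraries with close replicates, but the change did not pass the test (log2 fold change 2.08, SE 0.93, adjusted p = 0.149, DESeq2), and by edgeR it was called higher. On cDNA Hist1h1c had 2, 1, 1 and 1 reads, too few for the test.

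Hist1h1b and Hist1h1a were the H1 genes called lower on cDNA. Hist1h1b gave 64.3 and 1.44 CPM in the cDNA Undiff libraries and 0.759 and 0.481 CPM in Day4 (log2 fold change -5.06, SE 1.12, adjusted p = 1.76e-04, DESeq2). Its Undiff mean rests almost wholly on replicate 1, and on Direct RNA it had 1 read in all 4 libraries. Hist1h1a gave 15.8 and 4.79 CPM in Undiff and 0 and 0.481 CPM in Day4 on cDNA (log2 fold change -4.23, SE 1.24, adjusted p = 0.00932). On Direct RNA it had 2 and 2 reads in Undiff and 0 in both Day4 libraries. Of the other H1 genes, Hist1h1d had 12 reads in all, Hist1h1e 9 and the testis gene Hist1h1t 1.

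With all libraries, DESeq2 called no H2a gene other than Hist3h2a on either kit, while edgeR also called Hist1h2ah and Hist1h2an lower on cDNA. Without cDNA Undiff replicate 1, edgeR called neither, and the log2 fold change of Hist1h2an turned to 2.31. Without Undiff replicate 2, DESeq2 called Hist1h2an lower. Hist1h2ae gave 17.2 and 22.0 CPM in Undiff and 14.1 and 6.78 CPM in Day4 on Direct RNA (log2 change -0.96, SE 0.99, adjusted p = 0.731, DESeq2). On cDNA it gave 6.32 and 4.79 CPM against 1.52 and 1.44 CPM (log2 fold change -1.84, SE 1.17, adjusted p = 0.416). Both kits had it lower in each Day4 library than in each Undiff library, within the error of the test. Hist1h2ag gave 5.74, 13.2, 0 and 12.2 CPM on Direct RNA and 2.11, 3.83, 0 and 1.44 CPM on cDNA, in the order Undiff replicates 1 and 2 and Day4 replicates 1 and 2. Its Direct RNA groups overlapped. On cDNA, log2 fold changes were -2.89 (SE 1.26) for Hist1h2ah and -1.33 (SE 1.47) for Hist1h2an, which had 15.8 CPM in Undiff replicate 1 and 0 in replicate 2.

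Among H2b genes, DESeq2 called Hist1h2bj, Hist1h2bk and Hist1h2bg lower on cDNA. Hist1h2bj gave 99.1 and 10.1 CPM in Undiff and 1.52 and 2.89 CPM in Day4 (log2 fold change -4.53, SE 0.88, adjusted p = 1.07e-05, DESeq2). Both Undiff libraries lay above both Day4 libraries, and it was the only lower DESeq2 call that remained when either Day4 library was left out. On Direct RNA it gave 14.3 and 5.51 CPM in Undiff and 0 and 5.42 CPM in Day4, from 5, 5, 0 and 4 reads. Hist1h2bk gave 27.4 and 14.8 CPM against 2.28 and 3.85 CPM on cDNA (log2 fold change -2.86, SE 0.83, adjusted p = 0.00813). Its Undiff replicates were the closest of the 3. Hist1h2bg gave 37.9 and 7.66 CPM against 4.55 and 3.37 CPM (log2 fold change -2.62, SE 0.87, adjusted p = 0.0272). The log2 fold changes of the other H2b genes with a mean count of at least 5 were -2.93 for Hist1h2bl, -2.76 for Hist1h2bn, -2.50 for Hist1h2bp and 0.07 for Hist1h2be (SE 1.07 to 1.33). None passed in DESeq2, and edgeR called the first 3 lower.

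Of the H3 genes, DESeq2 called Hist1h3c and Hist1h3e lower on cDNA. Hist1h3c gave 14.3 and 18.7 CPM in Undiff and 3.53 and 8.13 CPM in Day4 on Direct RNA (log2 change -1.27, SE 1.10, adjusted p = 0.640, DESeq2). On cDNA it gave 11.6 and 6.70 CPM against 0.759 and 0.481 CPM (log2 fold change -3.46, SE 1.17, adjusted p = 0.0311). The states did not overlap on either kit, and on Direct RNA the difference did not pass. Hist1h3e gave 13.7 and 1.92 CPM in the cDNA Undiff libraries and 0 in both Day4 libraries (log2 fold change -4.54, SE 1.39, adjusted p = 0.0138). On Direct RNA it gave 2.87, 7.71, 0 and 4.07 CPM. Hist1h3g, with 6.32, 6.70, 0.759 and 0.963 CPM on cDNA and 5.74, 3.31, 3.53 and 2.71 CPM on Direct RNA, was not called by DESeq2 (log2 fold change -2.63, SE 1.19, on cDNA), and neither was Hist1h3h (-3.15, SE 1.26). By edgeR both were called lower on cDNA, and so was Hist1h3i, which lay below a mean count of 5 in DESeq2.

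Of the H4 genes, DESeq2 called Hist1h4h and Hist4h4 lower on cDNA. Hist1h4h gave 62.2 and 6.22 CPM in Undiff and 3.03 and 3.37 CPM in Day4 (log2 fold change -3.43, SE 0.89, adjusted p = 0.00218, DESeq2). On Direct RNA it gave 8.61, 4.41, 0 and 5.42 CPM, so the states overlapped there. Hist4h4, the single gene of its cluster, at chr6:136801553-136804415 (minus strand), gave 12.6 and 4.79 CPM against 0 reads in both cDNA Day4 libraries (log2 fold change -4.79, SE 1.36, adjusted p = 0.00632). Hist1h4i was even across the Direct RNA libraries, at 8.61, 8.82, 10.6 and 10.8 CPM. On cDNA it gave 17.9, 3.83, 4.55 and 3.37 CPM (log2 fold change -1.57, SE 0.98), where only replicate 1 of Undiff stood out. Hist1h4c gave 30.6, 3.83, 1.52 and 3.85 CPM on cDNA (log2 fold change -2.67, SE 0.98, adjusted p = 0.0563) and 1 read in all on Direct RNA. Hist1h4n gave a log2 fold change of -2.53 (SE 1.21) on cDNA. Neither passed in DESeq2 with the settings used, and edgeR called both lower on cDNA with all libraries and neither without Undiff replicate 1. DESeq2 called Hist1h4c lower, as a further member beside the 9, with independent filtering and Cook's cutoff on, and also called it without Undiff replicate 2.

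The lower calls on cDNA changed with the libraries and the tool. Without cDNA Undiff replicate 1, DESeq2 called 0 of 13 members tested lower, beside 4.22% of all genes, with 1 lower at an unadjusted p under 0.05, while Hist3h2a and Hist3h2ba were called higher, beside 5.28%. Some of the 9 members lay below the mean count in that fit and could not be called, such as Hist1h1b (3, 1 and 1 reads) and Hist1h3e (4, 0 and 0). The fitted changes of the 9 members in that fit were below 0, with log2 fold changes of -0.73 (SE 1.60) for Hist1h1b, -1.01 (SE 1.33) for Hist1h4h, -1.04 (SE 1.26) for Hist1h2bg, -1.67 (SE 1.51) for Hist1h3e, -2.03 (SE 1.29) for Hist1h2bj, -2.22 (SE 1.16) for Hist1h2bk, -2.62 (SE 1.48) for Hist1h3c, -2.63 (SE 1.58) for Hist1h1a and -3.16 (SE 1.60) for Hist4h4. By edgeR without the same library, which was added after seeing the data, 4 of 14 members tested were called lower, Hist1h2bj, Hist1h2bk, Hist1h3c and Hist1h3g, beside 13.5% of all genes, and the Hist3 pair higher, beside 16.7%. Without Undiff replicate 2, DESeq2 called 9 lower, beside 4.38% of all genes. These were not the same 9, as Hist1h2bk and Hist1h3c were lost and Hist1h2an and Hist1h4c gained. Without Day4 replicate 1 or Day4 replicate 2 only Hist1h2bj was called lower, beside 4.08% and 3.93% of all genes. The higher calls were Hist3h2a alone without Undiff replicate 2 (3.57% of all genes) or Day4 replicate 1 (3.38%), and both genes of the pair without Day4 replicate 2 (3.37%). The replicate number as a block left 4 lower calls, Hist1h1b, Hist1h2bj, Hist1h4h and Hist4h4, beside 7.57% of all genes, and the Hist3 pair higher, beside 5.81%. On Direct RNA it left 1 higher call, Hist3h2ba, beside 4.72% of all genes, and 0 lower, beside 4.02%, with 0 lower at an unadjusted p under 0.05 in DESeq2.

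**Figure D4:**
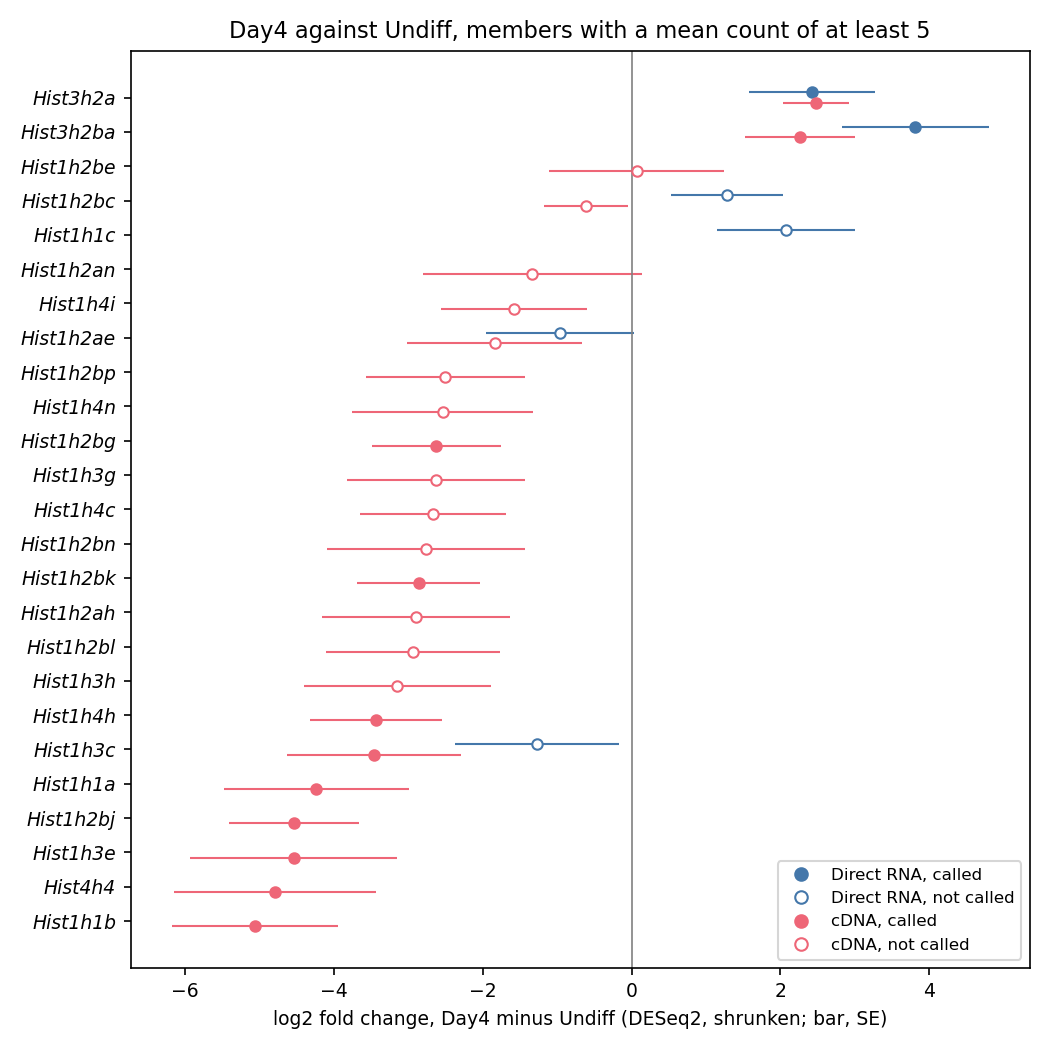
Log2 fold change of Day4 over Undiff (x axis, bars are SE) for the 25 members with a mean count of at least 5 on either kit, drawn only for kits where that count was reached; filled points passed the test. Hist3h2a and Hist3h2ba are filled on the right on both kits, and the 9 filled points on the left are all cDNA.

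Near the threshold on the mean count, Hist1h4i (4.83) and Hist1h2ag (3.96) lay just below it on Direct RNA and Hist1h3c (5.70) and Hist1h2ae (7.59) just above. On cDNA, Hist1h3i (4.81) and Hist1h4d (4.77) lay just below and Hist1h2bn (5.07) and Hist1h2be (5.33) just above.

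By class, the 2 kits showed both shared and opposite movements, given here as sums with no test. H3 was lower in each Day4 library on both kits, at 48.8 and 55.1 CPM against 10.6 and 28.5 on Direct RNA and 65.4 and 22.0 CPM against 1.52 and 5.30 on cDNA. H2a was higher in each Day4 library on both, at 57.4 and 63.9 CPM against 70.6 and 94.9 on Direct RNA and 98.0 and 51.2 CPM against 261 and 238 on cDNA, and in both this was Hist3h2a. The other 17 H2a genes summed to 45.9 and 59.5 CPM in Undiff and 24.7 and 42.0 CPM in Day4 on Direct RNA, and to 65.4 and 16.8 CPM against 6.07 and 10.6 CPM on cDNA. H2b was higher in Day4 on Direct RNA (63.1 and 52.9 CPM against 127 and 118) and overlapped on cDNA (285 and 110 CPM against 180 and 92.9). Without Hist3h2ba the H2b sums were 63.1 and 49.6 CPM against 74.1 and 67.8 on Direct RNA and 262 and 106 CPM against 51.6 and 55.4 on cDNA. H4 overlapped on Direct RNA (43.0 and 27.5 CPM against 14.1 and 32.5) and was lower on cDNA (163 and 26.3 CPM against 12.9 and 16.4). H1 was higher in Day4 on Direct RNA (28.7 and 14.3 CPM against 38.8 and 35.3) and lower on cDNA (90.7 and 7.18 CPM against 2.28 and 1.44). Most of the Direct RNA sum in Day4 was Hist1h1c. The other 5 H1 genes summed to 23.0 and 7.71 CPM in Undiff and 3.53 and 1.36 CPM in Day4 on Direct RNA. On cDNA they summed to 88.5 and 6.70 CPM against 1.52 and 0.963 CPM, so they were lower in Day4 on both kits.

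Split by what the annotated 3′ end holds, the make-up of the reads differed between states on both kits. Members with a stem-loop and a later poly(A) signal took 32.1% (95% Wilson interval 23.1 to 42.7) and 30.9% (24.8 to 37.7) of the members' reads in the Undiff Direct RNA libraries. In Day4 they took 64.9% (53.5 to 74.8) and 55.3% (48.8 to 61.6). On cDNA the shares were 26.4% (23.2 to 29.9) and 30.2% (26.2 to 34.6) in Undiff and 87.2% (84.3 to 89.7) and 79.6% (76.5 to 82.3) in Day4. Most of that difference was the Hist3 pair. The 14 members of this kind other than the pair held 66.0 and 58.4 CPM in Undiff and 70.6 and 67.8 CPM in Day4 on Direct RNA, and 131 and 26.8 CPM against 15.9 and 16.8 CPM on cDNA.

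Members with a stem-loop and no later signal, the form closest to the classical replication-dependent gene, held 103 and 91.5 CPM in Undiff and 14.1 and 48.8 CPM in Day4 on Direct RNA. On cDNA they held 289 and 60.3 CPM in Undiff and 14.4 and 24.1 CPM in Day4. Each Day4 library lay below each Undiff library of its kit, also without cDNA Undiff replicate 1. This holds for the sum of the 27 genes and not for each. Of them 6 had no read in any library, and on Direct RNA Hist1h2bg (mean 3.42 CPM in Undiff and 3.80 in Day4) and Hist1h2ab (1.65 and 3.12) were not lower, nor on cDNA were Hist1h2ad and Hist1h3a, which had 2 reads and 1 read there. The 19 members with neither feature held 43.0 and 32.0 CPM in Undiff and 14.1 and 42.0 CPM in Day4 on Direct RNA, where the states overlapped, and 182 and 28.7 CPM against 6.83 and 10.1 CPM on cDNA, where they did not. The 6 with a signal and no stem-loop held 17.2 and 24.2 CPM against 63.5 and 47.5 CPM on Direct RNA and 45.3 and 62.2 CPM against 37.2 and 38.0 CPM on cDNA. On cDNA all kinds other than the one that holds the Hist3 pair were thus lower in each Day4 library, and the kinds were not tested against each other. The summed S-phase genes were also lower in Day4, at 4420 and 4400 CPM against 6899 and 6233 on Direct RNA and 3523 and 4190 CPM against 4865 and 5429 on cDNA. Endoderm markers rose at the same time from 23.0 and 30.9 to 1044 and 681 CPM on Direct RNA and from 4.22 and 7.18 to 206 and 245 CPM on cDNA, with Gata6, Afp and Ttr at 0 in every Undiff library. Fibroblast markers rose from 14.3 and 8.82 to 3006 and 1327 CPM and from 9.49 and 4.79 to 242 and 279 CPM, with Col1a2, Col3a1, Postn and Dcn at 0 in every Undiff library. The part of cycling and of cell type in the histone values was not tested. In bulk RNA, fewer cells of a type and less RNA per cell cannot be told apart.

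**Figure D5:**
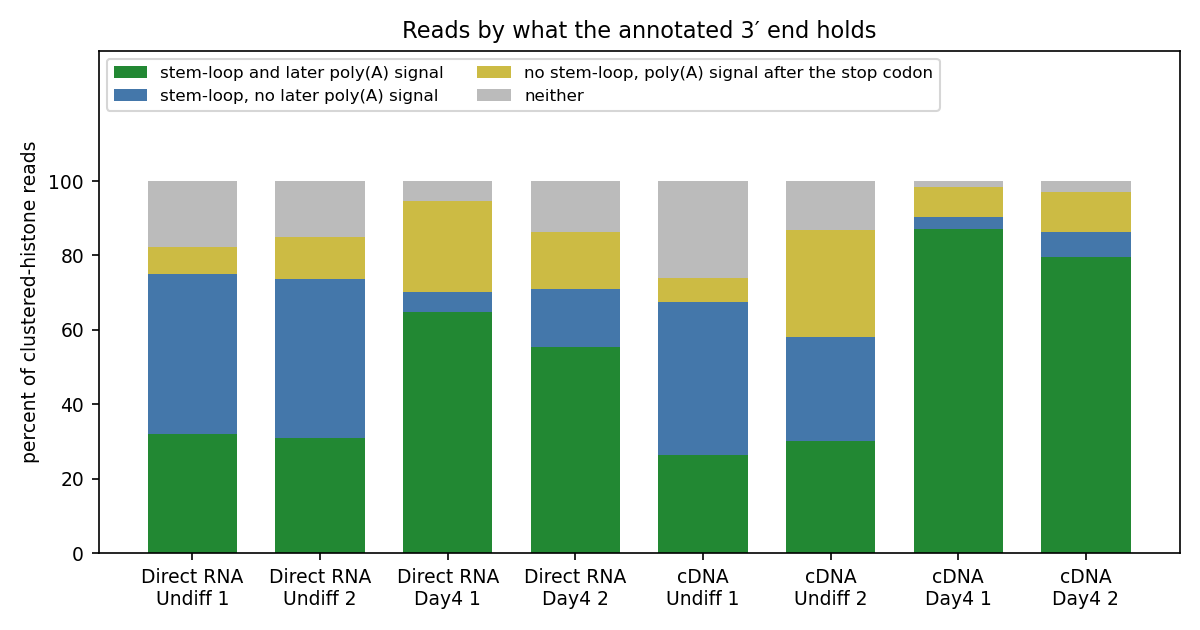
Percent of clustered-histone reads in each library that fell on members of 4 kinds, by whether the annotated transcript holds a stem-loop and whether a poly(A) signal follows. The share of members with both rises from 26.4% to 32.1% in the Undiff libraries to 55.3% to 87.2% in the Day4 libraries.

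The second comparison asked how the kits differed, in a fit over all 8 libraries with state and kit as terms. This fit treats the 8 libraries as separate samples, although RNA of the same cultures was used for both kits. A fit with a replicate block is given below. Of the 13 members with a mean count of at least 5, 6 were higher on cDNA, beside 24.7% of the 10426 genes tested, and 1 was higher on Direct RNA, beside 26.6%. By edgeR with all libraries, 9 of 13 were higher on cDNA, beside 28% of all genes, and 2 higher on Direct RNA, beside 27.6%. The 6 were Hist3h2a, Hist3h2ba, Hist1h2bg, Hist1h2bk, Hist1h4c and Hist1h4h, and the 1 was Hist1h1c.

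Hist3h2a was higher on cDNA in both states, with all 4 cDNA values above the Direct RNA values of the same state (log2 difference 2.93, SE 0.32, adjusted p = 3.64e-18, DESeq2). Hist3h2ba differed less (1.93, SE 0.64, adjusted p = 0.00876), and in Day4 the Direct RNA values of 52.9 and 50.2 CPM lay between the cDNA values of 128 and 37.5 CPM. Hist3h2ba was not called without cDNA Day4 replicate 1, nor in either state alone, with adjusted p up to 0.119 over the alternatives run in DESeq2 and edgeR. Hist1h1c was the reverse case. It had 43 reads in the 4 Direct RNA libraries and 5 in the 4 cDNA libraries, although the latter held more reads in all (log2 difference -3.18, SE 0.77, adjusted p = 1.90e-04). From the counts pooled over both states its cDNA level was 0.0412 of the Direct RNA level, with a counting interval of 0.0127 to 0.104. The gap was smaller in Undiff, with means of 1.29 CPM (cDNA) and 6.18 CPM (Direct RNA), than in Day4, at 0.620 and 34.6 CPM. Over the alternatives run the log2 difference ran from -4.06 to -0.94. All 5 cDNA reads together were fewer than those of the Undiff replicate 2 Direct RNA library alone.

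The other 4 calls were lost without the library that stands apart. Hist1h4c (log2 difference 3.36, SE 0.96, adjusted p = 0.00193, DESeq2), Hist1h2bg (2.07, SE 0.80, adjusted p = 0.0292), Hist1h2bk (1.77, SE 0.65, adjusted p = 0.0204) and Hist1h4h (1.92, SE 0.81, adjusted p = 0.0495) were not called without cDNA Undiff replicate 1. The members called higher were then 2 of 9 tested, the Hist3 pair, beside 23.8% of all genes, and Hist1h1c was called lower, beside 24.5%. With state and replicate number as a replicate block, 6 of 13 members were again higher, beside 23.5%, but Hist1h4h was no longer called and Hist1h1b was, and Hist1h1c was again the 1 lower, beside 25%. Without Direct RNA Undiff replicate 1 or replicate 2, 3 of 13 were higher, beside 22.5% and 22.7%, and 1 lower, beside 24.1% and 23.9%. Hist1h1c was not called without Direct RNA Day4 replicate 2, which held 25 of its 43 reads. In Undiff alone, with both libraries of each kit, 5 of 22 members tested were higher on cDNA by DESeq2, beside 17.5% of all genes, and 0 lower, beside 12%, with 1 lower at an unadjusted p under 0.05. In Day4 alone, of 5 tested, Hist3h2a was higher and Hist1h1c lower, beside 18.2% and 13.8%. The 2 kits differ in input, PCR, read depth and, where stated, strand handling, and these cannot be told apart. A gene is annotated on the opposite strand over an exon of 21 members, Hist3h2a and Hist1h2ae among them. For the gene counts the paper names only Direct RNA as strand-specific and does not spell out the cDNA setting. Its exon counting of cDNA ignored the strand.

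Whether the state change itself differed between kits was tested by an interaction term. No member passed in DESeq2, beside 0% of 17267 genes higher and 0.0116% lower. Of the 58 members with a read, 3 had an unadjusted p under 0.05, Hist1h2bc, Hist1h2bj and Hist2h2bb, each with a lower change on cDNA. By edgeR none passed and 8 had an unadjusted p under 0.05. The opposite class sums of H1 and the calls present on one kit and absent on the other are therefore not shown to differ between kits.

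Histone genes outside the clusters, most of which use ordinary polyadenylation and supply histones also outside S phase, were read far more deeply. H2afx, on the same list, is known to make a stem-loop form as well as a polyadenylated one. The 14 replacement variant genes in the tables summed to 4127 and 4306 CPM in Undiff and 6728 and 7667 CPM in Day4 on Direct RNA, and to 5803 and 5106 against 8700 and 8098 CPM on cDNA. On Direct RNA 4 of 11 tested rose by DESeq2 and 0 fell (9.54% and 7.67% of all genes), and on cDNA 1 of 11 rose and 0 fell (8.69% and 9.24%). H1f0, the linker histone of arrested and differentiated cells, rose on both kits. It gave 45.9 and 48.5 CPM in Undiff against 430 and 408 CPM in Day4 on Direct RNA (log2 fold change 2.97), and 12.6 and 13.4 CPM against 124 and 116 CPM on cDNA (2.81). H1fx, H2afy and H2afy2, the last pair coding for macroH2A, rose on Direct RNA and were not called on cDNA by DESeq2 with all libraries. The cDNA log2 fold change of H2afy2 was 2.52 with all libraries and ran from 1.42 to 4.45 without single libraries. H2afy was not called on Direct RNA without either Undiff library or without Day4 replicate 2. By edgeR, H2afy2 was also called higher on cDNA, and H2afj lower on both kits. H3f3a and H3f3b, which code for H3.3, gave log2 fold changes of 0.93 and 0.52 on Direct RNA and 0.76 and 0.67 on cDNA. Neither was called by DESeq2 or edgeR, and the adjusted p of H3f3a on Direct RNA was 0.00309 in DESeq2 with a change below 1 log2 unit.

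Genes that make and handle histone mRNA and protein were tested in the same fits. Of the 20 genes of histone transcription, 3′ processing and decay tested on Direct RNA, 1 rose (Zcchc11, a uridylyl transferase) and 2 fell by DESeq2 (Upf1, a helicase of mRNA decay, and Zfp473, a zinc finger protein of histone pre-mRNA processing), beside 9.54% and 7.67% of all genes. Of 19 tested on cDNA DESeq2 called none, with 2 higher and 3 lower at an unadjusted p under 0.05. By edgeR 3 of the 19 rose and 2 fell on cDNA (17.1% and 15.4% of all genes), Zcchc11 among the former and Upf1 and Zfp473 the latter. On Direct RNA edgeR called 1 of the 20 higher, Zcchc11, beside 18.6% of all genes. It called 4 lower, Casp8ap2, Coil, Upf1 and Zfp473, beside 15%. Upf1 gave 182 and 5.75 CPM in Undiff and 6.07 and 2.41 CPM in Day4 on cDNA, so replicate 1 of Undiff held nearly all of it, and its log2 fold change by DESeq2 was -3.40 with that library and -0.59 without. On Direct RNA Upf1 gave 31.6 and 86.0 CPM against 17.6 and 4.07 CPM, and was called only with all libraries or without Day4 replicate 1. Zcchc11 and Zfp473 were not called on Direct RNA when any 1 library was left out. Slbp, the stem-loop binding protein, gave 207 and 167 CPM in Undiff and 127 and 144 CPM in Day4 on Direct RNA and 29.5, 51.7, 69.0 and 89.5 CPM on cDNA in the same order. It was lower in Day4 on one kit and higher on the other, and was called on neither. Of 21 histone chaperone and modifier genes tested on each kit, Hat1, which acetylates new H4, fell on both (log2 fold change -1.91 on Direct RNA and -1.67 on cDNA), and Daxx, a chaperone of H3.3, fell on Direct RNA by DESeq2, which called no other gene of the list (7.67% of all genes lower on Direct RNA and 9.24% on cDNA). Hat1 was not called without Direct RNA Undiff replicate 2 or without cDNA Day4 replicate 1, and Daxx not without any 1 Direct RNA library. By edgeR with all Direct RNA libraries, 4 of the 21 fell, Asf1b, Daxx, Hat1 and Supt16, beside 15% of all genes, and 0 rose. Of 25 S-phase genes tested on each kit, 3 fell on Direct RNA and 4 on cDNA by DESeq2, beside 7.67% and 9.24% of all genes tested. Ccne1, cyclin E1, fell on both kits (log2 fold change -2.60 and -2.50), and on cDNA it was not called without Undiff replicate 2.

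Since the Hist3 pair moved together, the RefSeq promoters (GRCm38.p6) of both genes are shown, 250 bases up to the start, on the plus strand. Capitals mark the CCAAT box, the TATA box in its TATAAA form, and ATTTGCAT, the octamer known from H2b promoters, each searched on both strands.

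Hist3h2ba: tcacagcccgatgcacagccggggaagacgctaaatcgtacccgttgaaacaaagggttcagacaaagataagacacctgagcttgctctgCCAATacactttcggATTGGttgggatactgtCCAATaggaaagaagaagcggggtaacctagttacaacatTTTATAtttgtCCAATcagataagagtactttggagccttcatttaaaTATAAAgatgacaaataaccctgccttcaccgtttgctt
Hist3h2a: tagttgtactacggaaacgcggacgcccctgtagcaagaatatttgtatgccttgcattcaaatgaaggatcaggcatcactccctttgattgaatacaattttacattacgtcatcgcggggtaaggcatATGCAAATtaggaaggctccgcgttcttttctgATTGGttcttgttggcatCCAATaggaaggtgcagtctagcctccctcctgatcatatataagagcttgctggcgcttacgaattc

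The windows lie at chr11:58948661-58948910 and chr11:58954435-58954684. Hist3h2ba has 4 CCAAT boxes, 2 TATA boxes and no octamer, and Hist3h2a has 2 CCAAT boxes, no TATA box of this form and 1 octamer. Of 62 members with a promoter in the table, 51 hold the CCAAT box, 29 the TATA box and 14 the octamer. Among all 32851 promoters of the same length, 33.9% hold the CCAAT box, 12.4% the TATA box and 1.60% the octamer. All 16 H2b genes with a promoter in the table hold the CCAAT box and 7 hold the octamer. A match is a description of the letters and not a site.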

How the data were processed

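Counts per gene were deposited as raw whole-number reads. The authors aligned base-called reads to mm10 with minimap2 in spliced mode without secondary alignments and counted them with HTSeq on a UCSC annotation (strand-specific for Direct RNA). Reads of low mapping quality were set aside by the counter (18.5% to 28.0% of listed reads per library), which affects near-identical histone copies. The 5 counter lines per library were left out of all totals. CPM are reads scaled to 1000000 reads on genes.

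Each kit was fitted separately over all genes with DESeq2 1.42.0 (Wald test, shrunken fold changes, Cook's cutoff and independent filtering off, R 4.3.3), as in the study's methods, with Benjamini-Hochberg adjustment. Kit was tested with state as a term over all 8 libraries, and the interaction without shrinkage. edgeR 4.0.16 (quasi-likelihood, TMM) was the alternative. The scripts were tested on simulated counts. Every member with a mean count of at least 5 on either kit is named, and the 3 members of most reads per class are given in every library. From the other lists, genes called on both kits were to be named, and others named were chosen after their values were seen. The members and lists were chosen with earlier results of these data known.

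The stem-loop was searched by its GG and CC ends and the TTT of its loop, with at most 1 of 6 stem positions unpaired. The longest GENCODE vM21 transcript of each gene was searched. A poly(A) signal was counted anywhere after the loop, or after the stop codon where no loop was found. Long models can therefore hold these letters without their being a used signal. Promoters were taken from RefSeq (GRCm38.p6), which held 62 of the 68 members. Genome sequence beyond the annotated transcript ends was not analysed here. Same-numbered samples of the 2 states share only a number: nothing in the labels pairs them.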

Additional observations from a re-analysis of the deposited data

Results flagged for a closer look

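The summed H1 genes moved in opposite directions on the 2 kits. On Direct RNA both Day4 libraries lay above both Undiff libraries, with means of 37.0 and 21.5 CPM. On cDNA both Day4 libraries lay below both Undiff libraries, with means of 1.86 and 48.9 CPM. The difference between the sums was not tested. Hist1h1c makes up most of the Direct RNA sum in Day4, and Hist1h1b in cDNA Undiff replicate 1 makes up most of the cDNA sum. Without Hist1h1c, left out because it rose on Direct RNA, the other 5 H1 genes were lower in each Day4 library on both kits. On Direct RNA they summed to 23.0 and 7.71 CPM in Undiff and 3.53 and 1.36 CPM in Day4, from few reads. The opposite directions of the sums thus came with Hist1h1c. No H1 gene passed the interaction test.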

How the results depend on the processing

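The limits are few reads and 2 libraries per group. On Direct RNA 6 members and on cDNA 24 reached a mean count of 5, and 4 members per library (median) had at least 10 reads, against 25 with more than 1 read and 39 with at least 1. Counts with at least 10 reads in every library kept 0 members in the Direct RNA and kit tests and 2 on cDNA, of which 1 was called higher and 0 lower.

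On Direct RNA the number of members called higher (2) was 4 by edgeR, 1 with the replicate block and 0 without each library. On cDNA the number called lower (9) was 19 by edgeR, 4 by edgeR without cDNA Undiff replicate 1 and 4 with the replicate block, and ran from 0 to 9 without single libraries. The number called higher (2) ran from 1 to 2. Between kits, the number higher on cDNA (6) was 9 by edgeR, ran from 2 to 8 without single libraries and was 1 in Day4 alone. The number lower (1) was 2 by edgeR, 0 in Undiff alone and 0 to 1 without single libraries. State and replicate number as a replicate block left these counts at 6 and 1, with Hist1h4h lost and Hist1h1b gained, and so did a pairing with the Day4 numbers crossed between kits, which was tried after seeing the data because same-numbered Day4 libraries correlated at -0.42 across kits (1395 genes). The interaction count was 0 under every alternative run. The within-kit correlations of same-numbered libraries were 0.21 and 0.50, from 2 pairs, and the samples share only a number. The cause of the remaining changes was not tested.

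The summed level per group, in CPM, moved with the denominator. With DESeq2 size factors it was 175 (Direct RNA Undiff) and 202 (Direct RNA Day4). Without the 100 genes of most reads it was 278, 345 and, for cDNA Day4, 532. Over all listed reads it was 128, 170 and 230, and 223 for cDNA Undiff, which then lay below cDNA Day4 and not above (459 and 406 over reads on genes). Without Hist3h2a the Day4 sums were 236 (Direct RNA) and 165 (cDNA).

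For single members, no Direct RNA state change turned direction under 60 values. On cDNA 4 of 266 did: Hist1h2an (range without single libraries -4.54 to 0.31, and 2.31 by edgeR without cDNA Undiff replicate 1) and Hist1h2be (-0.37 and -0.14, range -0.37 to 0.52). Between kits 3 of 182 did, all Hist1h4i, at -0.01 and -0.55 without a library (range -0.55 to 0.54) and -0.54 in Day4 alone. The exact form of Hist3h2a was found in 25 members against 43 for the general form, and 44 had a stem-loop in any transcript.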
